A study of Drosophila melanogaster with 3 samples.

Results

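Inside introns close to gene starts, the authors' reproducible binding sites of the fly protein CG6765 numbered 914 of 3816 in all. They were chosen by position alone, as peaks on the dm6 assembly whose summit lay more than 500 bp and at most 5000 bp from the nearest annotated start of any gene, inside a protein-coding gene and outside every annotated exon. They are called near-start intron peaks here. A further 6612 of 25083 weaker candidate peaks that overlapped no reproducible peak had the same kind of position and served as the comparison.

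The data were ChIP-seq peak lists, made by sequencing DNA pulled down together with a tagged protein, from Drosophila melanogaster embryos of both sexes aged 0 to 24 h. All 3 biological replicates formed 1 group, with no other genotype or treatment, and carried a stable transgene that expresses CG6765 with green fluorescent protein (eGFP) at its C terminus. The labels disagree on the antibody: a description names anti-GFP and the antibody field names CG6765. Chromatin was sonicated to fragments of 200 to 800 bp, and a possible control experiment named in the labels is not analysed here. Whole embryos were used, so each peak is an average over all cell types and over the whole of embryogenesis, and binding in few cells cannot be told apart from weak binding in many. The sheared fragments are longer than the windows searched for sequence below, so positions within a window rest on the summits the authors placed.

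CG6765 is predicted to encode a transcription factor with a BTB domain, which mediates contacts between proteins, and zinc fingers, which bind DNA. Introns of fly developmental genes often hold enhancers, short stretches of DNA that bind transcription factors and raise transcription from a nearby start, and the first intron is a frequent place for them. Many fly genes also have alternative starts, so that a site in an intron of a long transcript can lie just upstream of the start of a shorter one.

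The sequences around the summits of the strongest peaks show how rich in A and T these sites were. Below are 51 bases centred on the summit, on the plus strand of dm6 and read from the RefSeq genome with the same coordinates, for the 7 printed among the 8 peaks of highest signal and for the intron peak of the gene CG6765 itself. Capitals mark words that were more frequent in near-start intron peaks than in the comparison, as described further on (GTAAACA for the Forkhead element, CTANNNNTA for the Mef2 element, TATAAA for the TATA box).
CG11050, chr2L:6612699-6612749: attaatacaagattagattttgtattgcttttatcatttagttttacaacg
Trl, chr3L:14759477-14759527: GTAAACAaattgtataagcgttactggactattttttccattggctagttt
ush, chr2L:481030-481080: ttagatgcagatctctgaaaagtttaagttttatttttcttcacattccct
Lk6, chr3R:11761016-11761066: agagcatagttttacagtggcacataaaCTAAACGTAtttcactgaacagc
CG32772, chrX:4910348-4910398: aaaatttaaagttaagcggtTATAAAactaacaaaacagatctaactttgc
CG9663, chr2L:3302170-3302220: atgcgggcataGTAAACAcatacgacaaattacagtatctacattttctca
Tlk, chrX:3742198-3742248: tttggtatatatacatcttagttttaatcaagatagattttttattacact
CG6765, chr3L:8513466-8513516: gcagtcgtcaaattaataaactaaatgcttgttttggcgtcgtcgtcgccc
The GC content of these windows was 21.6% at CG11050, 31.4% at Trl, 29.4% at ush and 37.3% at Lk6. It was 25.5% at CG32772, 35.3% at CG9663, 19.6% at Tlk and 45.1% at CG6765. The weakest of the 8, at CG6765, was also the one richest in G and C.

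CG6765 carried a near-start intron peak in its own gene (FBgn0035903; 3L, 8512767 to 8518738, plus strand). This peak spanned 8513263 to 8513718, with its summit at 8513491, 724 bp from the nearest start of CG6765. Its signal, a value per peak that the authors give without a unit and that is used here only to rank peaks within a list, was 154, and it ranked 2959 of the 30000 pooled candidates. In replicates 1, 2 and 3 a summit within 100 bp ranked 1571, 9010 and 2776. Replicate 2 thus placed it below its 3816 strongest peaks, while the other replicates placed it among them. A stronger thresholded peak, too close to a start for this class, lay 193 bp from a start of CG6765. Its signal was 391 and its pooled rank 501, with ranks 558, 1394 and 135 in replicates 1, 2 and 3. The embryos also carry a CG6765 transgene, and whether its DNA adds to the signal of peaks at this gene was not tested.

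The strongest near-start intron peak was also the strongest of all thresholded peaks. It lay in CG11050 (2L, 6612410 to 6612960), 1037 bp downstream of a start of the same gene, in an intron of only 140 bp, with a signal of 2699 and ranks 1, 1 and 2 in replicates 1, 2 and 3. The next was in the second intron of Trl, which encodes GAGA factor, an opener of chromatin (3L, 14759300 to 14759741; signal 1852; ranks 4, 5 and 5). An intron peak of ush, which encodes a zinc finger partner of GATA factors (2L, 480905 to 481279; signal 1803; ranks 3, 10 and 8), lay 1367 bp from the start of a different gene, cbt. Lk6, a kinase that phosphorylates the translation factor eIF4E, followed with a signal of 1315 and ranks 15, 12 and 13.

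The hosts of the 25 strongest near-start intron peaks are given here by what their products do, a grouping made after the peaks were seen and not tested. Among chromatin proteins these were the paired HMG box genes HmgZ and HmgD, which share 1 of the 25 peaks (signal 1154). The rest of this group were the histone demethylase Kdm2 (757), the histone methyltransferase trx (683), the NuRD subunit simj (635) and the corepressor scaffold Sin3A (625). Among transcription factors they were Trl, ush, the forkhead box gene CHES-1-like (686), NFAT (651) and CG32772 (1233). Kinases and other signalling genes were Lk6, the Tousled-like kinase Tlk (1124), the cGMP-dependent kinase for (751), the phospholipase C gene norpA (678) and Raf (613). The replication kinase subunit chif shared its peak with Hyls1 (924), and bmm, a triglyceride lipase, had one of signal 763. The others were CG9663 (1141), CG12769 (935), CG9837 (857), CG31635 (717), Reph (686), CG9135 (646) and CG3726 (635). All 25 ranked 288 or better in every replicate. Kdm2, with ranks 277, 70 and 58, and Reph, with ranks 64, 288 and 155, had replicates far apart. In 21 of the 25 the summit was in a first intron, near the share of 80.0% over all 914 near-start intron peaks. In 23 of the 25 the GC content within 50 bp was under 35%, where 53.3% of all 914 were.

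**Figure D1:**
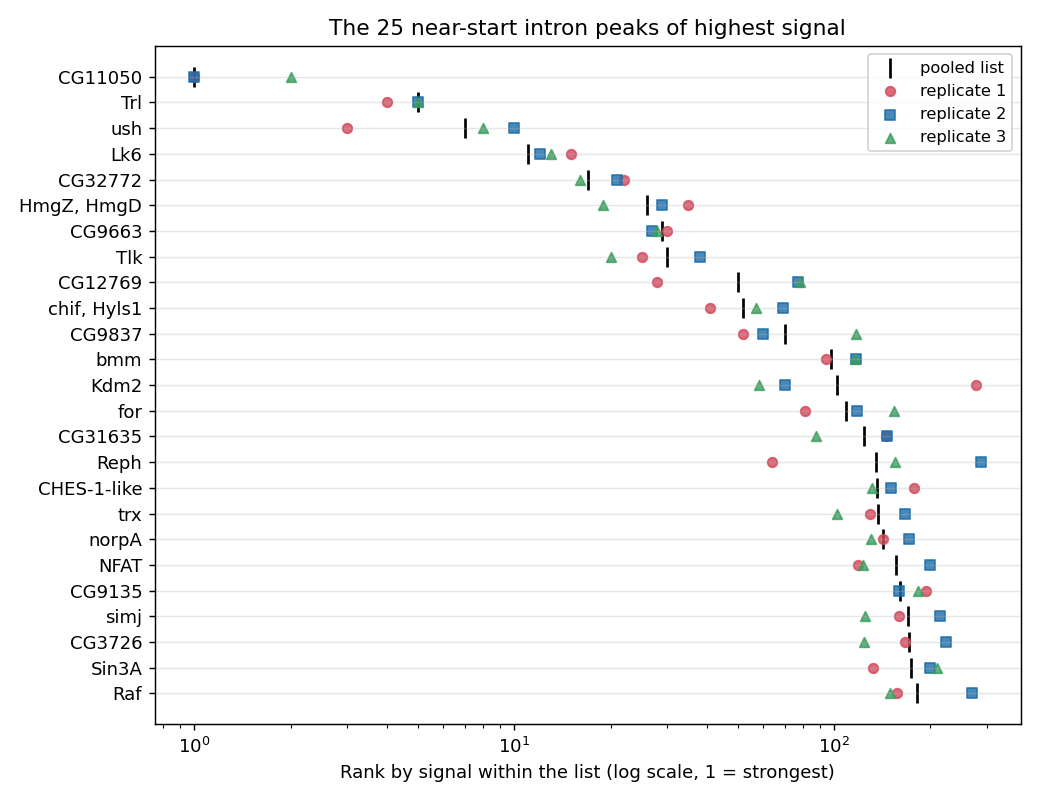
Rank by signal, on a log axis where 1 is the strongest, of the 25 near-start intron peaks of highest signal in the pooled list (black bars) and in the lists of replicates 1, 2 and 3 (points), labelled by host gene. The CG11050 peak ranked 1 or 2 throughout, and no point of the 25 lies beyond rank 288.

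Across all 914 peaks the signal ran from 135 to 2699 with a median of 194. A summit within 100 bp was present in the candidate lists of replicates 1, 2 and 3 for 89.8%, 95.4% and 90.5% of them (91.9% ± 3.05, SD, n = 3), and 716 (78.3%) had one in all 3 lists. Counting only the 3816 strongest peaks of each replicate, these shares were 67.9%, 78.9% and 66.1% (71.0% ± 6.92, SD, n = 3). Replicate 2 was the highest in both counts. The strongest peaks of all 3 replicates held 380 of the 914 (41.6%, Wilson 95% interval 38.4 to 44.8), against a background of 40.3% for all thresholded peaks. Thresholded peaks in introns more than 5000 bp from any start, called deep-intron peaks here, were held this often in 98 of 291 cases (33.7%, 28.5 to 39.3). That difference passed a two-sided exact test by Fisher's method over peaks (odds ratio 1.40, 95% interval 1.06 to 1.85, p adjusted over 2 comparisons by the Benjamini-Hochberg method 0.0385), but it was lost without replicate 3 (odds ratio 1.10, exact test, adjusted p = 0.499). For the 2164 thresholded peaks within 500 bp of a start, called promoter peaks here, the share was 41.7% (odds ratio 0.996, 0.851 to 1.16, exact test, adjusted p = 0.968), but without replicate 2 the odds ratio was 0.819 and passed (exact test, adjusted p = 0.0150).

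Intron positions near starts made up a slightly smaller share of the thresholded peaks than of the weaker candidates. The share was 24.0% (22.6 to 25.3) against 26.4% (25.8 to 26.9), with an odds ratio of 0.880 (0.813 to 0.953; two-sided Fisher's exact test, p = 0.00154). Thresholded peaks were 12.7% of all pooled candidates, of every position. In the replicates' own lists, where the 3816 strongest peaks of a replicate were set against its remaining ones, the shares were 23.1% against 23.2%, 25.3% against 27.8%, and 23.2% against 25.4%. The strongest peaks were lower in 3 of 3, and the gap in replicate 1 was the smallest. The direction depended on the limits of the class: up to 2000 bp from a start the odds ratio was 1.14 (exact p = 0.00699), and with 1 start per gene, its 5′ end, it was 1.10 (exact p = 0.0165).

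Within introns, near-start peaks were densest closest to the starts. Per Mb of intron sequence that met the rule, 66.4 thresholded summits lay from 500 to 1000 bp from a start, 47.1 from 1000 to 1500 bp, 41.5 from 1500 to 2000 bp, and 22.1 from 4500 to 5000 bp. The comparison peaks fell less steeply over the same bins, from 337 to 241 per Mb. From 500 to 1000 bp lay 31.3% of the near-start intron peaks and 22.0% of the comparison (odds ratio 1.62, 1.39 to 1.88; Fisher's exact test, adjusted p = 2.5e-09 over 9 position features). From 2000 to 5000 bp lay 35.2% and 47.4% (odds ratio 0.604, adjusted exact p = 1.5e-11). The middle class, from 1000 to 2000 bp, did not pass (33.5% and 30.7%, odds ratio 1.14, 0.983 to 1.32, adjusted exact p = 0.0968). Signal itself varied little with distance, with medians of 199, 195 and 191 in the 3 classes.

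**Figure D2:**
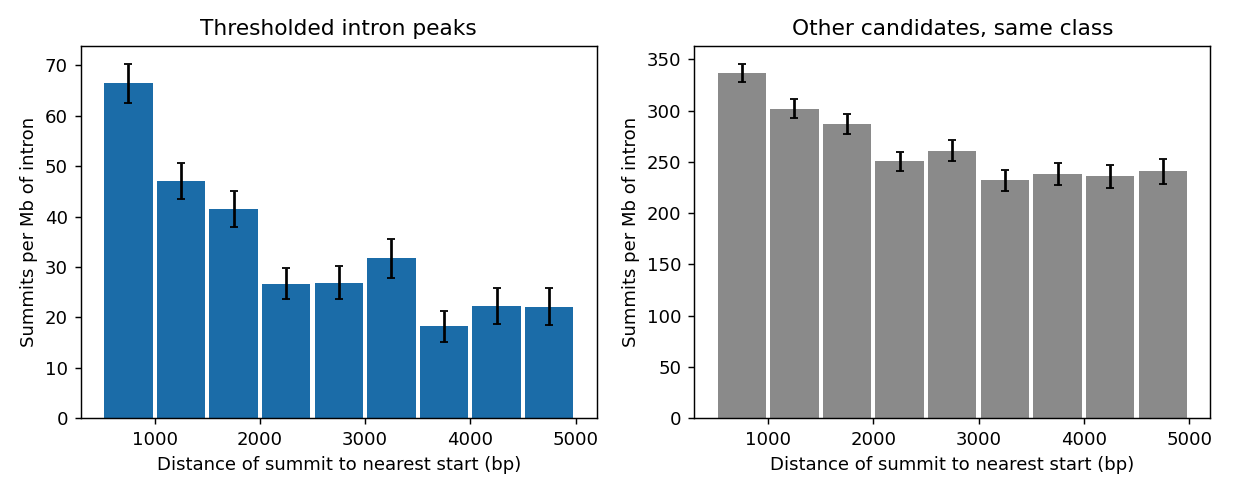
Summits per Mb of eligible intron in bins of 500 bp of distance to the nearest start, for the 914 thresholded near-start intron peaks (left) and the 6612 comparison peaks (right), with bars for the square-root counting error. Thresholded summits fell from 66.4 to 22.1 per Mb between the first and last bin and comparison summits from 337 to 241 per Mb.

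Of the 9 position features tested, 7 passed (77.8%), among them several on the gene that holds the peak. First introns, counted over every transcript of the host, held 80.0% of the near-start intron peaks (731 of 914) and 68.6% of the comparison (odds ratio 1.83, 1.54 to 2.17; adjusted exact p = 3.4e-12). In replicates 1, 2 and 3 the strongest peaks were in first introns in 77.6%, 79.8% and 80.5% of cases. The remaining ones were in 64.3%, 70.6% and 68.3%, so the strongest were higher in 3 of 3. The distance class from 1000 to 2000 bp, which did not pass in the pooled lists, was higher in 3 of 3 as well (mean 33.3% against 30.5%). The nearest start belonged to the host gene in 81.6% against 73.1% (odds ratio 1.63, adjusted exact p = 3.4e-08) and to a protein-coding gene in 90.8% against 87.5% (odds ratio 1.41, adjusted exact p = 0.00444). Neither passed when the comparison was limited to the next 3816 ranks under the threshold (odds ratios 1.02 and 0.981, adjusted exact p = 0.936 for both). A host gene had a thresholded summit within 500 bp of one of its starts in 57.1% against 45.0% (odds ratio 1.62, adjusted exact p = 2.3e-11). This is a trait of the gene counted once per peak, so genes with several peaks weigh more and the p-value treats their peaks as separate draws. Counted by gene, 338 of the 660 hosts (51.2%) had such a summit, and a difference between genes was not tested. Introns of 5 kb or more held 66.4% against 71.4% (odds ratio 0.792, adjusted exact p = 0.00324), a difference that did not pass within bands of distance (odds ratio 0.901, exact Mantel-Haenszel test, adjusted p = 0.218) or against the next 3816 ranks (odds ratio 0.875, adjusted exact p = 0.271). Summits downstream of the nearest start were 65.8% against 66.6% and did not pass (odds ratio 0.961, 0.831 to 1.11, adjusted exact p = 0.601). None of the 6 arms passed (0%), while at an unadjusted exact p under 0.05 there were 2, with 15.4% against 18.5% on 2L and 26.0% against 22.7% on 3R.

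The nearest start was that of a gene other than the host for 168 near-start intron peaks. Of these starts 84 belonged to protein-coding genes, 67 to non-coding RNA genes, 8 to tRNA genes and 7 to snoRNA genes. An EcR peak, in the gene of the ecdysone receptor, was closest to the tRNA gene tRNA:Asn-GTT-1-1, at 1274 bp. A CHES-1-like peak was closest to lncRNA:CR43287, at 807 bp. Among all 914 peaks, whichever gene had the nearest start, 58 lay in introns of more than 1 protein-coding gene.

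Low GC content had the highest odds ratio of the position and sequence features that were tested against the comparison. Within 50 bp of the summit the median GC content was 34.7% (quartiles 28.7 and 41.6) against 40.6% (34.7 and 46.5), and 53.3% of the peaks (487 of 914) were under 35% against 28.1% (odds ratio 2.92, 2.54 to 3.37; two-sided Fisher's exact test, adjusted p = 8.4e-50 over 2 classes). In replicates 1, 2 and 3 the strongest peaks were under 35% in 48.3%, 57.9% and 39.5% of cases and the remaining ones in 25.4%, 34.3% and 23.5% (48.6% ± 9.24 against 27.7% ± 5.78, SD, n = 3). Every replicate thus showed the same direction, and replicate 3 was the lowest of the strongest. GC content over 50% was found in 8.21% against 15.2% (odds ratio 0.498, adjusted exact p = 2.4e-09). Both classes passed in the pooled lists (100%), but the class over 50% did not in the list of replicate 3 (13.8% against 15.9%, odds ratio 0.846, adjusted exact p = 0.114). In 4 equal groups by signal, from the highest, the share under 35% was 69.9%, 52.8%, 46.1% and 44.3%. Deep-intron peaks had the same median, 34.7%, and promoter peaks 38.6%. The drop was local: in bins of 20 bp the mean GC content of near-start intron peaks was 42.0% at 470 bp before the summit and 34.5% at 10 bp after it, while the comparison had 41.2% and 40.3% at those points.

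**Figure D3:**
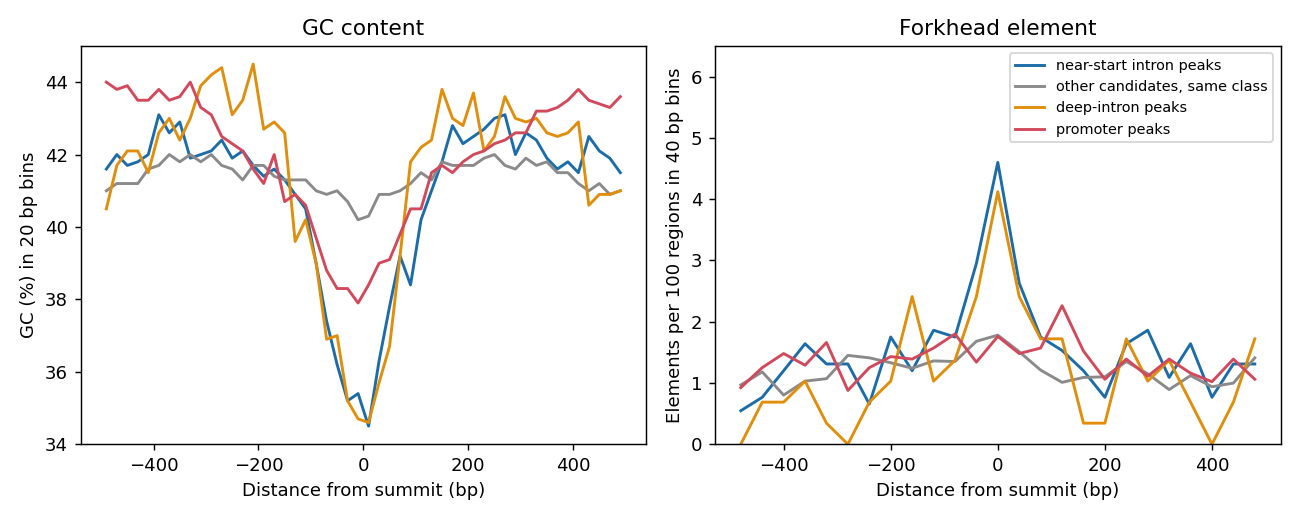
Left, mean GC content (%) in bins of 20 bp around the summit, and right, Forkhead elements per 100 regions in bins of 40 bp, for near-start intron peaks, the comparison, deep-intron peaks and promoter peaks. The GC axis starts at 34%; at the summit near-start intron peaks reached 4.60 Forkhead elements per 100 regions against 1.78 in the comparison.

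The Forkhead element TGTTTAC, the core of sites bound by forkhead box proteins, was more frequent at near-start intron peaks, and it passed within bands of GC content too. Of 37 short consensus words searched on either strand of a window of 101 bases, 50 to each side of the summit, 6 passed against the comparison (16.2%), 4 of them higher (10.8%). The words were chosen with earlier results of these data known, which the adjustment over 37 words does not cover. The Forkhead element was found in 72 of 914 peaks (7.88%, 6.30 to 9.81) and in 274 of 6612 comparison peaks (4.14%, 3.69 to 4.65), with an odds ratio of 1.98 (1.51 to 2.59; two-sided Fisher's exact test, adjusted p = 5.2e-05 over 37 words). It occurred in 3.46% of all pooled candidates and 5.14% of all thresholded peaks. In replicates 1, 2 and 3 it was in 5.80%, 7.88% and 7.55% of the strongest peaks. The remaining ones held it in 3.10%, 3.91% and 3.72%, so the strongest were higher in 3 of 3. The word CATATG, which did not pass in the pooled lists, was higher in 3 of 3 as well (mean 4.98% against 4.00%). Within 5 bands of GC content the odds ratio was 1.99 (exact Mantel-Haenszel test, adjusted p = 8.1e-05). The band from 42.6% to 47.5% GC had the widest gap, with 15.4% of 117 peaks against 4.11% of 1507. The elements were centred on the summits, with 4.60 per 100 peaks in the central bin of 40 bp and 0.547 and 1.31 in the outermost bins, while the comparison had 1.78 in the centre. In 4 equal groups by signal, from the highest, the share was 6.99%, 12.7%, 5.70% and 6.14%, so it was not highest in the strongest group. When the comparison was limited to the next 3816 ranks under the threshold, the odds ratio was 1.54 and did not pass (adjusted exact p = 0.220), and likewise for summits up to 2000 bp from a start (odds ratio 1.48, adjusted exact p = 0.240).

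These are 101 bases centred on the summit of the 6 strongest printed near-start intron peaks that hold a Forkhead element, in capitals (GTAAACA is TGTTTAC read on the other strand). They are shown so that the element can be seen with its flanks, and all but the Trl peak were chosen after their values were seen.
Trl, chr3L:14759452-14759552: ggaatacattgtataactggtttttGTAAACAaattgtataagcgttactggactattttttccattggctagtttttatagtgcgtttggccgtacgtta
CG9663, chr2L:3302145-3302245: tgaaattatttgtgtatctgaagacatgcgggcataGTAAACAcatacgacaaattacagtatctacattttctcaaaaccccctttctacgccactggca
Csk, chr3R:11649609-11649709: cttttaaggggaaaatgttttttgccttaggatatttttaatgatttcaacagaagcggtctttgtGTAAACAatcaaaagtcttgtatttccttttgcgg
SCaMC, chr3L:12407103-12407203: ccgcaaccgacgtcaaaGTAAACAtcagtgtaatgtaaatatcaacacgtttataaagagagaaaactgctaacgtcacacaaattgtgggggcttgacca
Oatp30B, chr2L:9525809-9525909: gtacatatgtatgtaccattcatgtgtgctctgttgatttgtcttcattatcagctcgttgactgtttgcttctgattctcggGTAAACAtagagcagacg
Unc-115a, chr3R:9702715-9702815: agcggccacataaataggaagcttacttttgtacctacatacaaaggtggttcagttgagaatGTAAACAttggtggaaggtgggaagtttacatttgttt
Csk encodes a kinase that restrains Src kinases, SCaMC a mitochondrial carrier, Oatp30B an organic anion transporter and Unc-115a an actin-binding protein. Their peaks had signals of 547, 531, 514 and 365. The peak in Csk ranked 250, 326 and 169 in replicates 1, 2 and 3, and that in Unc-115a ranked 626, 653 and 673.

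The other words that passed in the pooled lists did not pass within bands of GC content. The TATA box TATAAA was in 22.2% of near-start intron peaks and 13.4% of the comparison (odds ratio 1.85, 1.56 to 2.20; adjusted exact p = 4.7e-10), the homeodomain element TAATTA in 9.63% and 6.32% (odds ratio 1.58, adjusted exact p = 0.00495) and the Mef2 element CTANNNNTA in 17.9% and 13.7% (odds ratio 1.37, adjusted exact p = 0.00631). Of all pooled candidates 12.7%, 6.29% and 13.4% held these words. Within bands of GC content the odds ratios were 1.20, 1.14 and 1.04, and none passed (exact Mantel-Haenszel test, adjusted p = 0.308, 0.620 and 0.806). The Scalloped element CATTCC was less frequent (2.30% against 4.64%, odds ratio 0.483, adjusted exact p = 0.00631; 4.18% of all pooled candidates), and so was the Tinman element TCAAGTG (0.985% against 2.34%, odds ratio 0.414, adjusted exact p = 0.0328; 1.99%). They did not pass within GC bands either (odds ratios 0.564 and 0.449, exact Mantel-Haenszel test, adjusted p = 0.189 for both). GAGA factor's own word GAGAG, which also lies inside the longer GAGA repeat searched, was in 11.3% against 12.3% and did not pass (odds ratio 0.903, 0.727 to 1.12, adjusted exact p = 0.684; 12.9% of all pooled candidates).

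A search without prior words gave 2 words that passed on chromosomes not used to rank them. Of 1076 words of 8 bases more frequent in near-start intron peaks on some arms, the first 5 were tested on 3L, 3R and X, and 2 passed (40.0%). The minimum of 10 peaks per word was counted on all arms, so the tested arms had a part in which words were ranked. With the minimum counted on the ranking arms alone, a choice made after seeing the data, 132 words were ranked and the same 2 passed. TAAAATAA was in 4.99% of 601 peaks and 2.50% of 4122 comparison peaks (odds ratio 2.05, 1.35 to 3.11; Fisher's exact test, adjusted p = 0.00676 over 5 words). AATATTGA was in 2.83% and 1.24% (odds ratio 2.32, 1.33 to 4.05; adjusted exact p = 0.0126). Of all pooled candidates 2.45% and 1.14% held them. Within bands of GC content, an alternative chosen after seeing the data, neither passed (odds ratios 1.16 and 2.07, exact Mantel-Haenszel test, adjusted p = 0.658 and 0.0955). The words GTACATAC, TAATTAAA, which contains TAATTA, and CATATTTA did not pass (adjusted exact p = 0.426, 1.00 and 0.126).

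**Figure D4:**
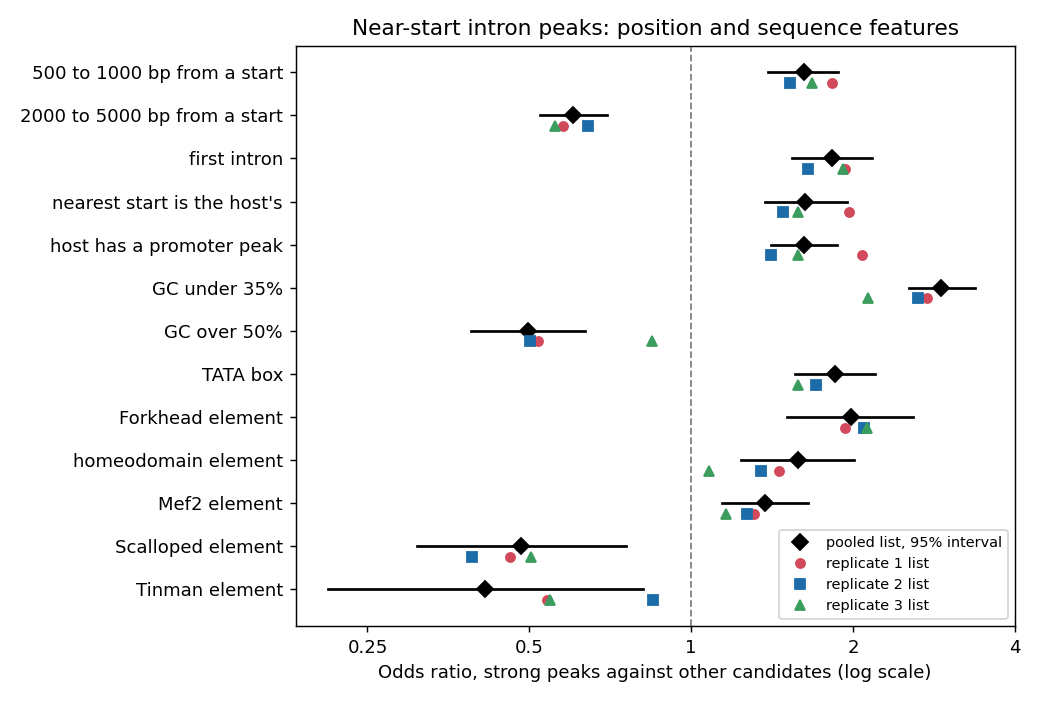
Odds ratios, on a log axis, of near-start intron peaks against comparison peaks of the same position for features that passed in the pooled lists (diamonds with 95% intervals), and of the strongest against the remaining peaks in each replicate's own list (points). GC content under 35% had the highest odds ratio, 2.92, and all points lie on the same side of 1 as their diamond.

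Against promoter peaks, the DRE and M1BP words were absent from near-start intron peaks, while other promoter words were present. The TATA box was in 22.2% against 18.8% (odds ratio 1.24, adjusted exact p = 0.106) and the initiator word TCAGTT, held by 7.89% of all thresholded peaks, in 7.55% against 8.18%, and neither passed. The DRE word TATCGATA, bound by the replication-related factor DREF, was in 0 of 914 peaks, which allows a share of up to 0.328% when 3 counts are taken as the limit of a count of 0, and in 53 of 2164 promoter peaks (2.45%; Fisher's exact test, adjusted p = 5.2e-07 over 37 words). The M1BP word GGTCACACT was in 0 of 914 and 27 of 2164 (1.25%, adjusted exact p = 0.00133). The comparison held them in 0.106% and 0.0454% of cases. The BEAF-32 word CGATA, which also lies inside the DRE word, was in 11.4% against 16.7% (odds ratio 0.639, adjusted exact p = 0.00133) and the Ets word CCGGAA in 2.08% against 4.34% (odds ratio 0.467, adjusted exact p = 0.0113). Of all pooled candidates, in the order given, 0.733%, 0.457%, 13.2% and 3.07% held these words. Higher than at promoter peaks were the Forkhead element (7.88% against 3.74%, odds ratio 2.20, 1.59 to 3.05, adjusted exact p = 8.0e-05), the Caudal word TTTATG (14.8% against 9.94%, odds ratio 1.57), the POU word ATGCAAAT (2.63% against 0.924%, odds ratio 2.89) and CATATG (5.69% against 3.28%, odds ratio 1.78), of which 11.6%, 1.63% and 3.38% of all pooled candidates held the last 3. The comparison peaks of the same position held the Caudal, POU and CATATG words in 13.3%, 1.88% and 4.23% of cases. Near-start intron peaks did not pass against them for any of these words (adjusted exact p = 0.497, 0.471 and 0.198). Against promoter peaks 8 of 37 words passed in all (21.6%). Within GC bands 5 of these 8 passed, namely DRE, M1BP, CGATA, POU and the Forkhead element (exact Mantel-Haenszel test, adjusted p from 2.5e-06 to 0.0425).

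Against deep-intron peaks 0 of 36 words passed (0%), and 1 had an unadjusted exact p under 0.05, the Caudal word with 14.8% against 8.59%. The Forkhead element was in 7.88% of near-start and 8.25% of deep-intron peaks (odds ratio 0.951, 0.587 to 1.54, adjusted exact p = 1.00), an interval that leaves room for differences in either direction.

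The 914 peaks lay in 660 genes, 4.73% of the 13945 protein-coding genes and 26.3% of the 2514 with any candidate of this position. A single peak was held by 459 of them (69.5%), 2 by 138, 3 by 34 and 4 or more by 29. Hosts were long genes, with a median of 15656 bp against 2166 bp for all protein-coding genes and 12766 bp for all genes with a candidate. Of the hosts 338 (51.2%) also had a thresholded summit at a start, and in 175 of these (51.8%) the intron peak had the higher signal.

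Several genes held clusters of near-start intron peaks. CHES-1-like, of 27048 bp, had 9 peaks over 16151 bp, with signals from 142 to 686. Tlk, of 69764 bp, had 8, from 173 to 1124, and no thresholded summit at a start. CG1677 had 7, from 143 to 407, and shn, a zinc finger factor of the Dpp pathway, had 7, from 143 to 368. In Kdm2, of only 10751 bp, 6 peaks fell within 3814 bp. Some summits lay close together, such as those at 7705561 and 7705768 of X in CHES-1-like, so the peaks of a gene are not separate draws.

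Shares of host genes are given for 22 lists of fly genes, as counts with no test. Gene length differed between the lists, with medians from 1358 bp for ribosomal protein genes to 36470 bp for neuronal channel and synapse genes, and its part in the counts was not tested. BTB domain transcription factors, the family of CG6765, hosted a peak in 10 of 18 genes (55.6%, Wilson interval 33.7 to 75.4) and in 66.7% of the 15 with any candidate, where 26.3% of all such genes did. Their strongest were in Trl, psq (signal 317) and mod(mdg4) (212), which encode proteins of chromatin and insulators. CG6765 itself is among the 10, subject to the limit of the transgene given above. The list median length was 31702 bp.

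EGF receptor and Ras pathway genes hosted a peak in 10 of 25 (40.0%), led by Lk6, Raf and the Ets factor pnt (signal 431), and the receptor gene Egfr and the antagonists aos and sty were among them. Nuclear receptors and ecdysone response genes did in 11 of 28 (39.3%), led by Hr4 (441), EcR (358) and Eip63E (242). RNA-binding regulators did in 14 of 39 (35.9%), led by the translational repressor brat (475), mub (416) and the splicing factor ps (412). As shares of the genes with a candidate these were 58.8%, 64.7% and 48.3%, each above 26.3%.

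The Hedgehog list had 5 of 17, where ptc, the receptor, led (signal 303) ahead of ttv (295) and dlp (239.7). The nearest starts to these peaks were those of lncRNA:CR44281, LamC and lncRNA:CR45888, and by the gene of the nearest start the list had 1 of 17. Over all lists 114 genes hosted a peak and 96 were the gene of a nearest start. The bHLH and leucine zipper list had 12 of 44, led by SREBP (445), Pdp1 (344) and crp (321). The Dpp list had 6 of 22, led by shn, sbb (321) and the inhibitory Smad Dad (225), and the JAK/STAT list had 3 of 12, namely Stat92E (313), the suppressor Socs36E (265) and ken (181). Insulin and TOR genes had 6 of 27, led by bun (361), the receptor InR (359.6) and REPTOR (289), and cAMP and G protein genes 5 of 25, led by the phosphodiesterase dnc (283), CrebB (212) and Pde11 (211). Polycomb and Trithorax group genes had 6 of 32, led by Trl, trx and ph-p (470.1), and these 6 were 66.7% of the 9 with a candidate, the same share as in the BTB list. Zinc finger factors outside the BTB family had 7 of 46, led by ush, CG32772 and shn. Among genes with a candidate, the shares were 55.6% for Hedgehog, 52.2% for bHLH and leucine zipper, 50.0% for Dpp, 60.0% for JAK/STAT, 40.0% for insulin and TOR and 31.8% for these zinc finger genes, above the 26.3% of all, while cAMP and G protein genes had 5 of 20, under it. Axon guidance and adhesion genes had 9 of 51, led by NetB (323), kirre (313) and LanB1 (272). With a median length of 33282 bp, that list hosted a peak in 22.0% of its 41 genes with a candidate, where 26.3% of all did.

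Of Notch genes 3 of 21 hosted a peak (mam, 458, Nak, 309, and neur, 187), of Wingless genes 4 of 29 (led by dco, 221, sgg, 202, and arr, 193) and of cell-cycle regulators 3 of 31 (Cdk4, 323, CycE, 305, and E2f1, 171). These were 42.9%, 30.8% and 42.9% of their 7, 13 and 7 genes with a candidate. Over all such genes the share was 26.3%, which the Wingless share was near, and no difference was tested. Neuronal channel and synapse genes had 4 of 40 (led by elav, 335, dlg1, 233, and Shab, 150.1), or 16.7% of those with a candidate, under 26.3%. The Hippo list had 1 of 19, the kinase wts (257), or 14.3% of its 7 genes with a candidate. The heat-shock chaperone list had 1 of 20, Hsp83 (391), of 2 with a candidate. Homeodomain factors had 2 of 54, Abd-B (324) and Lim1 (165), or 11.1% of the 18 with a candidate. Ribosomal protein genes had 0 of 86, which allows a share of up to 3.49% with 3 counts as the limit (Wilson upper limit 4.28%), and odorant and gustatory receptor genes 0 of 24, which allows up to 12.5% (Wilson 13.8%). Neither list had a single candidate of this position, so nothing could be called in them.

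**Figure D5:**
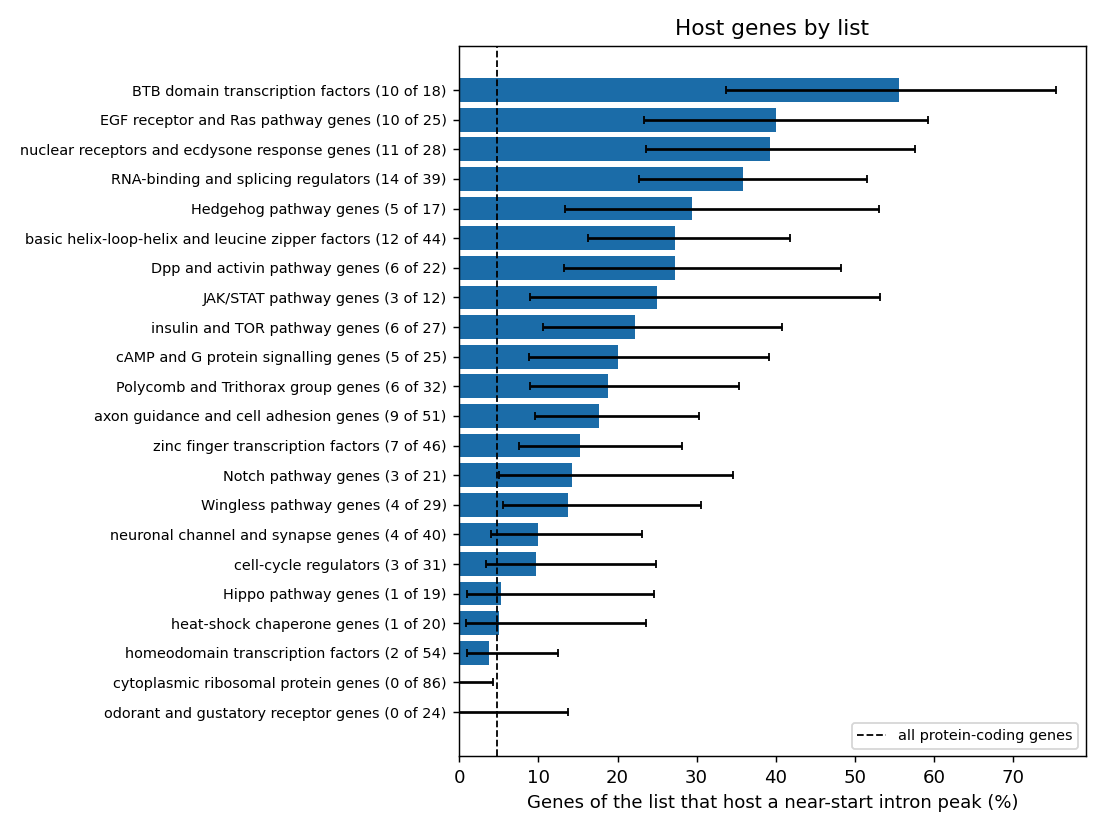
Share of the genes of each list that host a near-start intron peak (bars, %), with Wilson 95% intervals that cover the counting of genes only, and the share of all protein-coding genes, 4.73%, as a dashed line. BTB domain factors had the highest share, 55.6%, and ribosomal protein and receptor genes had none.

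At the near limit of the rule, the first peaks inside were in prage and wkd, both at 503 bp (signals 526 and 143), and in bun at 504 bp (361). Those just outside were in CG42671 at 500 bp (437), Pdp1 at 498 bp (384) and CG30389 at 496 bp (157). At the far limit ed at 4997 bp (173), CG46429 and Sesn at 4985 bp (143) and Eip75B at 4979 bp (226) were inside, while tara at 5005 bp (404), bun at 5008 bp (423) and Lrch at 5050 bp (304) were outside. The lowest signals, 135 in sgg, Ae2 and DPCoAC, met the highest of the comparison, 135 in Antp, 134 in IP3K2 and 134 in sky. The thresholded peaks of all positions were exactly the 3816 pooled candidates of highest signal.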

How the data were processed

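The authors deposited a candidate peak list of 30000 regions for each replicate, another for the replicates pooled, and a shorter list that passed their reproducibility threshold, per the labels. Each deposited peak has a signal without a stated unit and a −log10 q-value (at least 2.70 in thresholded peaks; median 0.605 in pooled candidates, which include background regions). No aligner, caller, version or threshold is named: these are not given in the sources used. Depth is unknown, so intervals cover counting only, and peaks are not replicates.

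Summits on dm6 were placed on Ensembl release 115 gene models (BDGP6.54). Pooled candidates overlapping a thresholded peak (1101) were left out. Tests were Fisher's exact tests, two-sided, or exact Mantel-Haenszel tests within bands of GC content or distance. P-values were adjusted by the Benjamini-Hochberg method, with a threshold of 0.05 (scipy 1.17.1, statsmodels 0.14.6, Python 3.11.15). Scripts were tested on simulated data. For 3 replicates the smallest exact sign-flip p is 0.250, so replicate values are described.

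Words of 8 bases needed 10 or more peaks; 2L, 2R and 4 served to rank them. Named genes were CG6765, hosts of the 25 strongest peaks, the 5 genes with most peaks, the 3 strongest hosts per list, and peaks at the limits. The peaks, lists and words were chosen with earlier results of these data known. In the lists 14 older symbols were mapped and 1 matched no gene. A further list is not reported here.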

Additional observations from a re-analysis of the deposited data

How the results depend on the processing

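No paired analysis was possible because the labels give 1 group. Position features that passed numbered 7, and 4 against only the candidates directly below the threshold, where the odds ratio for a protein-coding nearest start was 0.981. The share of near-start introns had odds ratios of 1.10 with gene 5′ ends only, 1.14 up to 2000 bp, 0.900 in the stronger part of the list (1908 peaks), 0.928 with starts of protein-coding genes only and 0.995 in replicate 1; its mean over replicates was 23.2% to 24.3% leaving out each in turn. Words that passed were 3 with 5′ ends, beyond 1000 bp, against candidates directly below, in replicates 2 and 3 and within 25 bp, and 1 up to 2000 bp or within GC bands, instead of 6. Against promoters they were 3 within 25 bp, 5 within GC bands and 4 in the stronger part, instead of 8. Of the words of 8 bases 0 passed beyond 1000 bp, up to 2000 bp, against candidates directly below, within 25 bp and within GC bands. In replicate 3, 1 GC class passed instead of 2, and in the stronger part 1 arm instead of 0. Lists had 114 hosts in all and 72 in the stronger part. Against deep introns the odds ratio for replicate support, 1.40, was 1.23 at 50 bp, 1.46 for the 1000 strongest, 1.10 for double the number, 1.12 in the stronger part and 1.10 to 1.56 leaving out replicates; against promoters it was 1.00 at 200 bp, 0.721 for the 1000 strongest, 1.11 for double the number, 1.03 in the stronger part and 0.819 to 1.17 leaving out replicates. The cause was not tested in any of these. Tests of position and GC within bands of distance, and of 8-base words within GC bands or with the minimum of 10 counted on the ranking arms alone (2 passed), were chosen after seeing the data.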
